A study of Mus musculus with 2 samples.

Results

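The most heavily used splice junctions of adult mouse lung were taken as the rows of the deposited junction list with at least 5000 reads, summed over both libraries. The members were thus chosen by their summed reads. The rule found 526 of 447240 junctions, or 0.1176% of the list. These junctions held 8915481 of 35330315 junction reads, or 25.23%. Their read numbers are therefore a description, and no test was made on them. The tissue was lung of C57BL/6J mice at 8 weeks of age, from littermates of both sexes pooled, with no treatment or genetic change named in the labels. Polyadenylated RNA longer than 200 nt, with synthetic spike-ins, was sequenced as stranded read pairs in 2 libraries that form 1 group. How many animals were pooled is not stated in those labels, so differences between the 2 libraries can be technical as well as biological. The junction reads are the list's own sum of 2 tallies, read here as the 2 libraries although no label defines them, and therefore have no SD, while gene levels are known for each library.

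A splice junction is the point in a mature RNA where the end of an upstream exon meets the start of a downstream exon after the intron between them has been removed. A read that crosses it shows that the RNA was spliced there. The number of such reads depends on how much RNA the gene makes, on which of its splice sites are used, and on whether the read can be placed at a single position of the genome. In the lung, alveolar type 2 cells make surfactant proteins, club cells of the airway make secretoglobins and detoxifying enzymes, and blood left in the tissue adds haemoglobin RNA.

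The letters across the junctions that lead the list, or on which the results turn, are printed below. Each line holds the last 20 bases of the upstream exon in lower case and the first 20 bases of the downstream exon in capitals, 5′ to 3′ on the strand of the gene, so the change of case is the splice junction. The letters were read from GENCODE transcripts on GRCm38, and the coordinates in the text are those of the removed introns in the deposited list on mm9. The first set gives the junction with the most reads in each of 6 genes that lead the list or carry many heavily used junctions, all between coding exons.
Scgb1a1 intron 1: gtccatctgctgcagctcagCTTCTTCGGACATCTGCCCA
Sftpc intron 4: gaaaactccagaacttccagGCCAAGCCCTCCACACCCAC
Cbr2 intron 7: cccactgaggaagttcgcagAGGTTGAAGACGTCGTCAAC
Actb intron 2: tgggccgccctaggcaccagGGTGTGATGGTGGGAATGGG
Cyp2f2 intron 8: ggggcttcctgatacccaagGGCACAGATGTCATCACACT
Gsn intron 14: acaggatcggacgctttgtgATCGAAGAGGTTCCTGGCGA

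The second set shows neighbouring copies of a gene, because junctions that join one copy to the other were among the most heavily used.
Hba-a1 intron 2: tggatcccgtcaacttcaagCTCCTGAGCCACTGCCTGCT
Hba-a2 intron 2: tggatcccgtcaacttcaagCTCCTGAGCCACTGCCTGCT
Hbb-bs intron 2: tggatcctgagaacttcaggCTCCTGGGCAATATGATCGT
Hbb-bt intron 2: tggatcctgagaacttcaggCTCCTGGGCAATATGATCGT
Lyz1 intron 3: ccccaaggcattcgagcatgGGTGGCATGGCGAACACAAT
Lyz2 intron 3: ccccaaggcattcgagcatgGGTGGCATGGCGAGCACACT
Scd3 intron 4: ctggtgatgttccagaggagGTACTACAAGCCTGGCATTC
Scd2 intron 4: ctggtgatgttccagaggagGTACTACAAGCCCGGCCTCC
Chil4 intron 1: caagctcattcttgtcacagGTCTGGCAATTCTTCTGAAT
Chil3 intron 1: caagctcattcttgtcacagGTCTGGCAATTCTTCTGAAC

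The third set shows a pair of acceptor sites, the downstream ends of introns, that lie 3 bases apart in the complement factor D gene Cfd. Both junctions passed the threshold, and they differ in whether 3 bases are kept in the RNA.
Cfd-202 intron 1: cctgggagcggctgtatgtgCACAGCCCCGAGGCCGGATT
Cfd-201 intron 1: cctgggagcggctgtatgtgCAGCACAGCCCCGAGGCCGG

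Reads were spread very unevenly over the 526 junctions. They ranged from 5000 to 445592 with a median of 8730, while the median of the whole list was 2 reads and 193397 junctions (43.24%) had a single read. Of the members, 203 had at least 10000 reads, 25 had at least 50000 and 10 had at least 100000. Those 10 junctions alone held 27.62% of the members' reads. It took 5273 junctions to hold 50% of all reads in the list. Just inside the threshold stood junctions of Adipor1 (5032 reads), Gnb2 (5027), Pltp (5010), Mxra8 (5007) and Sec14l3 (5000). Just outside it stood junctions of Mgst1 (4996), Wfdc2 (4993), Ace (4991), Flii (4990) and Adgre5 (4986).

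The first intron of Scgb1a1, the secretoglobin of club cells, had the most reads, 445592 (chr19:9159866-9162336, minus strand). Its second and last intron had 139176 reads (chr19:9158302-9159677). All 5 introns of Sftpc, which encodes surfactant protein C, were among the 14 junctions with the most reads. They had 173532, 209298, 151731, 243068 and 81310 reads from the first intron to the fifth, and the highest was intron 4 (chr14:70921280-70921611, minus strand). Sftpb, which encodes surfactant protein B, had 114458 reads at intron 9 (chr6:72262428-72262863, plus strand) and 88592 at its main intron 6. Intron 7 of Cbr2, a carbonyl reductase of the lung, had 97008 reads (chr11:120591140-120591228, minus strand). The haemoglobin genes of red blood cells also stood near the top, with 332469 reads at Hba-a1 intron 2 and 326546 at Hba-a2 intron 2. Between these came a junction that runs from one of these genes into the other, with 326619 reads. Actb, the cytoplasmic actin gene, followed with 71096 reads at intron 2 (chr5:143667156-143667242, minus strand) and 68010 at intron 1, which lies in the 5′ UTR.

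**Figure D1:**
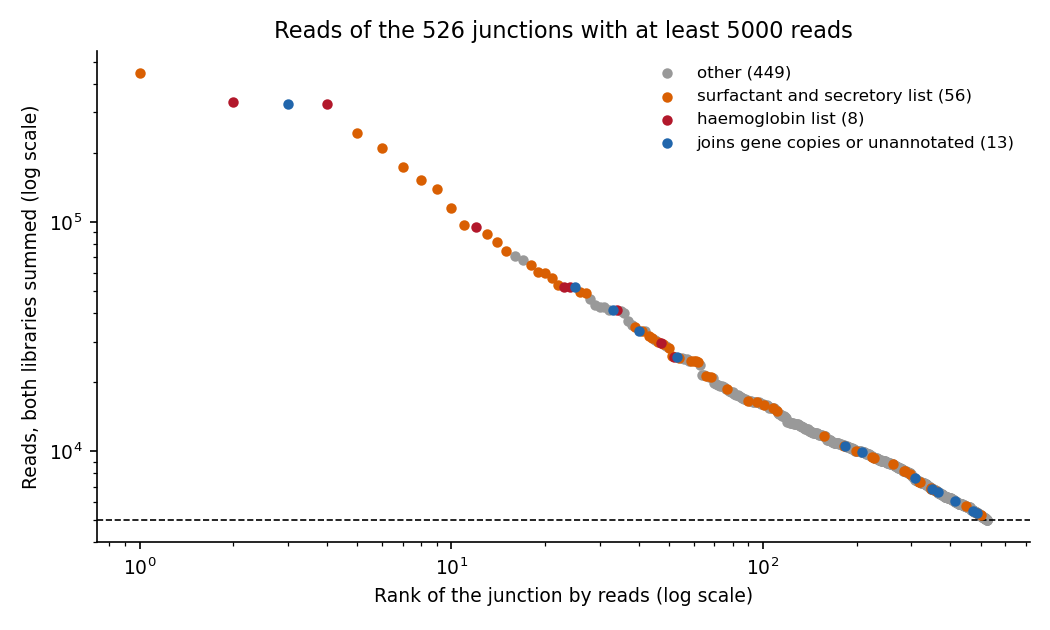
Reads of each of the 526 junctions (vertical axis, both libraries summed, log scale) against its rank (horizontal axis, log scale), coloured by gene list; each point is 1 junction and the dashed line is the threshold of 5000 reads. Of the 10 junctions at 100000 reads or more, 7 belong to surfactant and secretory genes, 2 to haemoglobin genes and 1 joins the haemoglobin gene copies.

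Of the 526 junctions, 514 could be given to an annotated intron, and they came from 217 genes. A single junction was found in 107 genes, 2 to 4 in 81 genes and 5 or more in 29 genes. Gsn, which encodes the actin-severing protein gelsolin, had the most, 16. Sftpb followed with 12. Slc34a2, the phosphate transporter of alveolar type 2 cells, the elongation factor gene Eef2 and the phospholipid transfer protein gene Pltp had 9 each. Sparc, Ager, Psap, Epas1 and Jup had 8 each. Most of the named junctions, 470 of 514, lay within the coding region, 39 in the 5′ UTR and 5 in the 3′ UTR. One of the 5 in the 3′ UTR was the fifth intron of Sftpc and 2 were alternatives at the tenth intron of Sftpb.

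Surfactant and secretory genes held the greatest share of the members' reads among the gene lists examined. Of 19 measured genes of that list, 13 had a member, with 56 junctions and 32.05% of the members' reads. The list also holds the enzyme genes Cbr2 and Cyp2f2 and the transporter gene Slc34a2, which encode neither surfactant proteins nor secretoglobins. They had 285162, 212046 and 96512 of the list's 2856985 reads. Among all genes, 217 had a member, while 13855 reached 1 TPM in both libraries. The lists were chosen with earlier results known, so their counts are a description. Cyp2f2, a cytochrome P450 of club cells, had 7 junctions with up to 59923 reads, and the lysozyme gene Lyz2 had 3 with up to 56618. Sftpa1, which encodes surfactant protein A, had 5 with up to 25600. The haemoglobin list followed with 4 of 5 measured genes, 8 junctions within the genes and 10.71% of the reads. In bulk tissue, more cells of a type and more RNA per cell cannot be told apart.

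Structural and vascular genes of the lung were also present. Of 25 measured extracellular matrix genes, 10 had a member, with 39 junctions and 6.244% of the reads. Gsn, which is better known for severing actin, held 16 of these junctions and 250716 of the list's 556641 reads, and Inmt, a methyltransferase gene also on the list, held 2 junctions. The matrix Gla protein gene Mgp reached 41267 reads, the microfibril gene Mfap4 40758 and Sparc, which encodes a collagen-binding matrix protein, 21505. Of 26 endothelial and alveolar type 1 genes, 14 had a member, with 51 junctions and 5.94% of the reads. Among them were Ager, the receptor for glycated proteins that marks alveolar type 1 cells (8 junctions, up to 20932 reads), and Epas1, a hypoxia-inducible transcription factor gene (8, up to 13449). Endothelial genes were Eng (6 junctions), Ace (6), Egfl7 (4), Cdh5 (1) and Tie1 (1). Of 17 immune and antigen presentation genes, 9 had a member. Cd74, the invariant chain of class II molecules, led in reads with 6 junctions and up to 42500 reads. Psap, the prosaposin gene, also on the list, had more junctions, 8, and 84417 of the list's 315476 reads.

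Genes of translation and energy supply were represented by a smaller share of their lists. Both lists were filled mostly with whole gene families by the start of the symbol, while the others were picked gene by gene. The shares of the lists therefore cannot be compared directly. Of 98 measured genes of translation and the ribosome, 16 had a member, with 37 junctions and 4.338% of the reads. Eef2 had 9 of these junctions and Rack1, a ribosome-bound scaffold protein gene, had 5. Of 110 genes of mitochondrial energy supply and glycolysis, 9 had a member, with 14 junctions and 1.607% of the reads. Of 29 contractile and cytoskeletal genes, 7 had a member (18 junctions, 3.634%). The skeletal muscle actin gene Acta1 held 5 of these junctions and 36578 of the list's 323992 reads. Its level was 1684.27 TPM in replicate 1 and 1.09 in replicate 2. Of 22 genes of lipid and oxidant metabolism, 9 had a member (30 junctions, 3.556%). Among them was Scd1, a fatty acid desaturase gene, with 5 junctions of up to 39981 reads. Together with the list of squamous and skeletal muscle markers described below, the lists covered 95 of the 217 genes, and 122 genes were in no list.

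Introns removed at these junctions were short. Their median length was 608 nt (interquartile range 184.25 to 1760.25), against 911 nt over the 51288 other junctions with at least 100 reads and 1238.5 nt over the 134060 others with at least 10 reads. The median over all other junctions, most of them with few reads, was 1617 nt. Introns under 200 nt made up 27.76% of the members and 20.54% of the others with at least 100 reads. In the same genes, the 1411 other junctions with at least 100 reads had a median of 648 nt, close to that of the members. Lengths of introns of 1 gene are not independent, and no test was made.

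The shortest member introns were in Eef2 (70 nt, 7508 reads), Crip2 (73 nt), Ucp2 (75 nt), Acta1 (76 nt) and Rabac1 (77 nt). In all, 64 members were at most 100 nt long. At the other end, 34 removed more than 10000 nt, and 22 of these were annotated introns. The longest annotated one was the first intron of App, the amyloid precursor protein gene, with 52804 nt and 30648 reads. Next came the first introns of Igfbp7 (51868 nt, 18737 reads) and of the moesin gene Msn (45621 nt, 14712 reads). The 4 members with spans above that of the App intron were all outside the annotation.

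**Figure D2:**
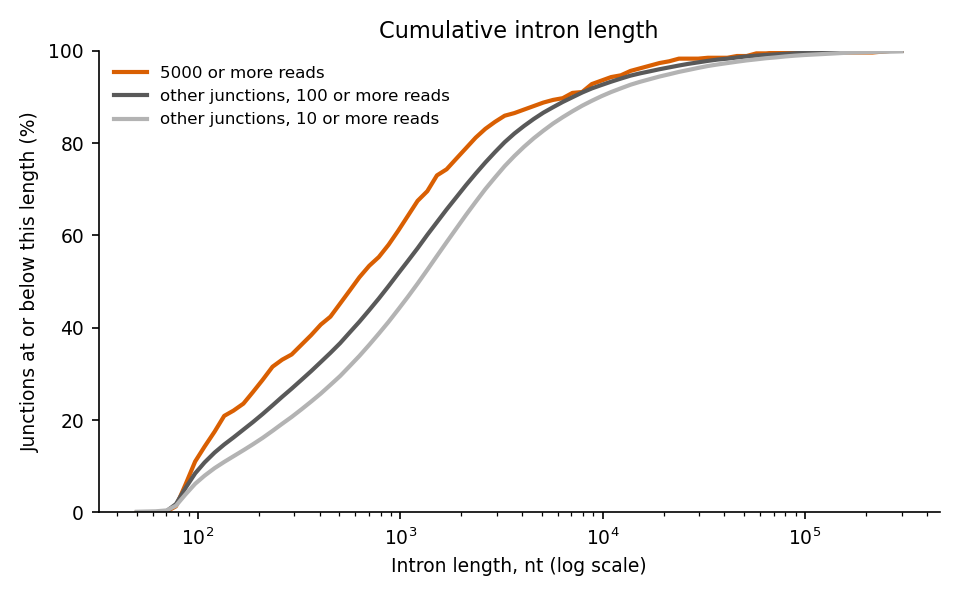
Percent of junctions (vertical axis) whose intron is at or below a given length in nt (horizontal axis, log scale) for the 526 junctions with at least 5000 reads and for 2 sets of other junctions. The line of the 526 lies to the left over the middle lengths, with medians of 608, 911 and 1238.5 nt from left to right.

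The heavily used junctions lay more often at the ends of genes, in genes with fewer introns. First introns were 21.79% of the named members and 11.55% of the other named junctions with at least 100 reads, and last introns were 16.73% and 11.37%. The median number of introns in the transcript was 7 for members and 14 for the others, so a first or last place was also more frequent by construction. The last base of the upstream exon was G at 85.21% of members and 81.9% of the others, and its last 2 bases were AG at 51.75% and 53.69%. The first base of the downstream exon was G at 47.28% and 50.12%.

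Reads were not even along a gene. In the median gene, 33.33% of the introns reached the threshold, and in 28 genes every intron did, 10 of them with 3 or more introns. Gsn had all 16 of its introns between 7263 and 25101 reads. Emp2, which encodes an epithelial membrane protein, had the narrow range of 16740, 18989, 21112 and 18111 reads over its 4 introns. Cbr2 had 31276 reads at its first intron, between 24481 and 29887 at introns 2 to 5, 49652 at the sixth and 97008 at the seventh and last.

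Fasn, the fatty acid synthase gene, showed a wider range with more reads near the 3′ end. Its first intron had 543 reads, its 42nd and last had 9100, and 6 of its 42 introns reached the threshold. Epas1 had 1103, 2007 and 1250 reads at its first 3 introns and 13449 at intron 8. The opposite order was seen in App, where the first intron had 30648 reads and the last had 3845. Over the 168 genes with at least 3 introns that were all found, the last intron exceeded the first in 73 (43.45%). Among 2609 other genes, whose highest junction had at least 500 but fewer than 5000 reads, this share was 50.33%. The median ratio of the highest to the lowest intron was 12.03 in the member genes and 13.45 in the other genes.

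In some genes a heavily used junction stood beside nearly empty ones. Scgb3a2, another airway secretoglobin gene, had 33352 reads at its first intron and 3 at the second of the transcript used, Scgb3a2-203. The gene has 3 annotated introns, and reads at introns outside that transcript are not given here. In Gapdh, a glycolysis gene, the first intron had 10782 reads and the next 3 of the transcript used had 4, 1 and 10. The last 2 were not found at the annotated spacing from the first. In Hspa8, a heat shock protein gene, the first intron had 11734 reads and the others between 6 and 818. Ckm, the muscle creatine kinase gene, had 1 read at its first intron, 5104 at its second and 2941, 908, 962 and 1994 at the others. Zdhhc3 ranged from 3 to 12520 reads over the 3 introns of the transcript used, Zdhhc3-202. The most-read junction is also the first of 6 introns of Zdhhc3-208, whose reads along the gene are not given here. Igfbp4 had 2 reads at intron 1 of the transcript used, Igfbp4-203, 3794 at intron 2 and 6229 at intron 3. Its most-read junction is also intron 3 of Igfbp4-201, whose reads along the gene are not given here.

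**Figure D3:**
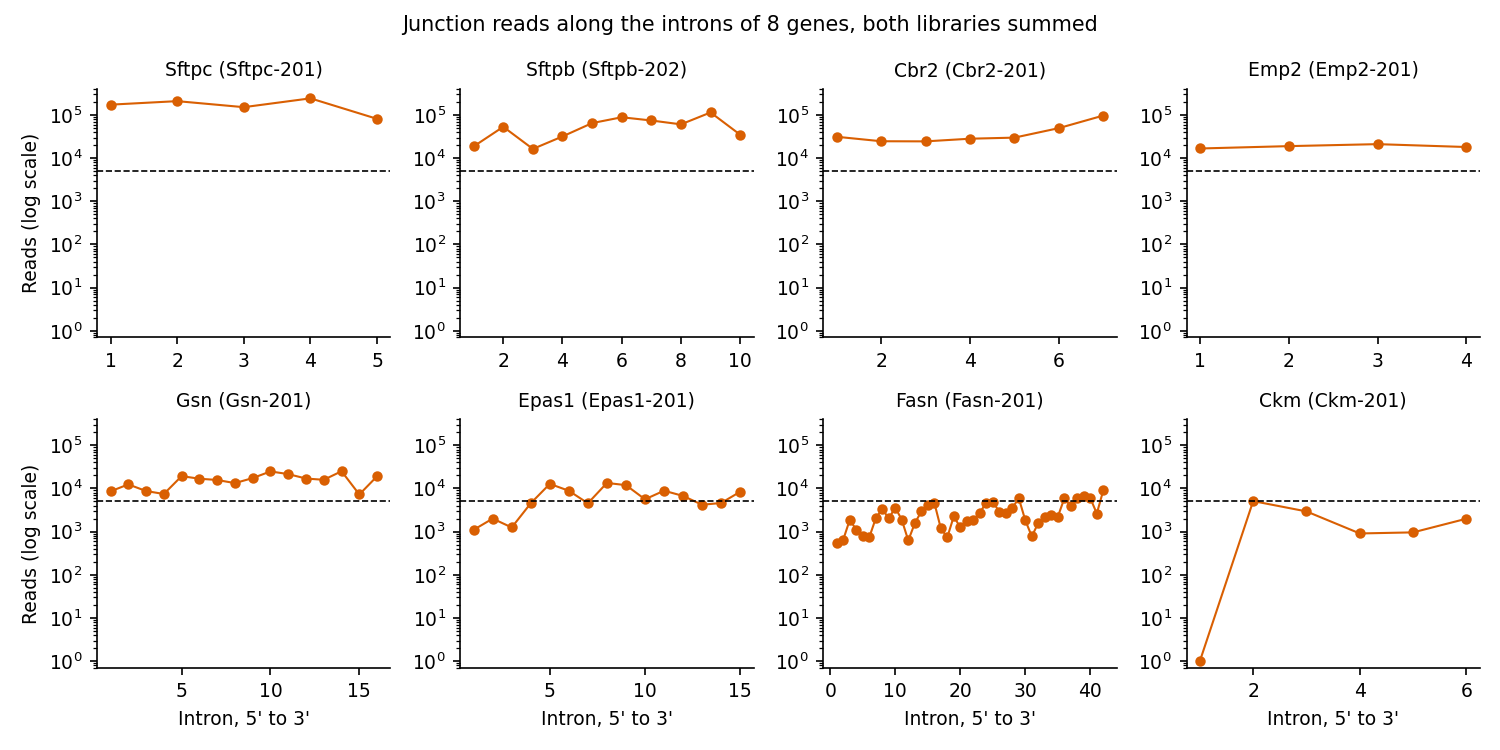
Junction reads (vertical axis, both libraries summed, log scale) at each intron in order from 5′ to 3′ (horizontal axis) for 8 genes; each point is 1 intron and the dashed line is the threshold of 5000 reads. Sftpc, Sftpb, Cbr2, Emp2 and Gsn lie above the line throughout, Fasn rises from 543 to 9100 reads with most introns below it, and Ckm crosses it at 1 intron.

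Among the 526 junctions, 13 were missing from the annotation or present only as a junction between neighbouring genes. Of these, 12 ran from an exon of one named gene into an exon of another, over 9 gene pairs, and held 531926 reads or 5.966% of the members' reads. All 9 pairs are related copies lying near each other on 1 chromosome. Such junctions were also found at lower read numbers. Of 134586 junctions with at least 10 reads, 585 (0.4347%) were unnamed and used splice sites of 2 different named genes, against 10 of the 526 (1.901%).

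The largest joined the alpha globin genes. The junction from the second exon of Hba-a1 to the third exon of Hba-a2 spans 12951 nt (chr11:32184129-32197079) and had 326619 reads. The introns within the genes had 332469 reads in Hba-a1 and 326546 in Hba-a2. At the first intron the joining junction had 52006 reads and the introns within the copies 52026 and 52062. The 3 counts at each position were thus nearly equal. As the printed letters show for intron 2, the copies have the same sequence around the junction. All of the 75 bases compared on each side were identical for both introns, so a read confined to them has the same letters at all 3 junctions.

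The beta globin genes and the lysozyme genes gave the same kind of junction with less equal counts. From Hbb-bs to Hbb-bt (14663 nt) the joining junction had 41219 reads, while the own intron had 95130 reads in Hbb-bs and 41162 in Hbb-bt. At their first introns the values were 25661, 25665 and 29546 reads. From Lyz1 to Lyz2 (10931 nt) the joining junction at the third intron had 33379 reads, against 5243 at the own intron of Lyz1 and 56618 at that of Lyz2. The joining reads were 6.366 times those of Lyz1's own intron. On the downstream side, 73 of 75 bases were identical, and on the upstream side 75 of 75. The gene levels were 293.4 ± 15.36 TPM (a deposited level scaled by transcript length and library total; mean ± SD, n = 2) for Lyz1 and 4131 ± 420.7 TPM for Lyz2.

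In 2 pairs the upstream gene had almost no reads of its own. Scd3, a desaturase gene, had 24 reads at its own intron 4, while the junction from Scd3 into Scd2 over 65235 nt had 6611 and Scd2's own intron had 7191. Chil4, a chitinase-like gene, had 23 reads at its own intron 1, while the junction from Chil4 into Chil3 over 54607 nt had 5486 and Chil3's own had 5478. The bases before the junction were identical between the copies for a run of 113 in Scd3 and Scd2 and of 68 in Chil4 and Chil3. On the downstream side the identical run was 12 and 19 bases long, followed by differences.

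The remaining pairs spanned up to 240103 nt. Selenbp2 and Selenbp1, selenium-binding protein genes, were joined with 7601 reads, while their own introns had 6733 and 10058. Selenbp2 had the lowest level of all genes with a member, 10.4 TPM on average (14.14 and 6.66 in replicates 1 and 2), against 811.0 ± 7.36 TPM for Selenbp1. The tubulin genes Tuba1a and Tuba1b were joined with 9912 reads, beside 11812 and 10431 at their own introns. The myosin light chain genes Myl12a and Myl12b were joined with 6046 reads, beside 6320 and 3537. In GENCODE M21, the annotation release used for naming, this joining junction is intron 3 of Myl12b-206, so it was counted as a junction of Myl12b. The junction from Cyp4b1 into its pseudogene Cyp4b1-ps2 had 10548 reads, beside 14017 at the own intron of Cyp4b1. The 13th, on chr4:121870932-122132563 (261632 nt, 5377 reads), had neither end in a named gene. The list alone cannot tell RNA that truly joins 2 copies from reads placed on either copy, and this was not tested.

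**Figure D4:**
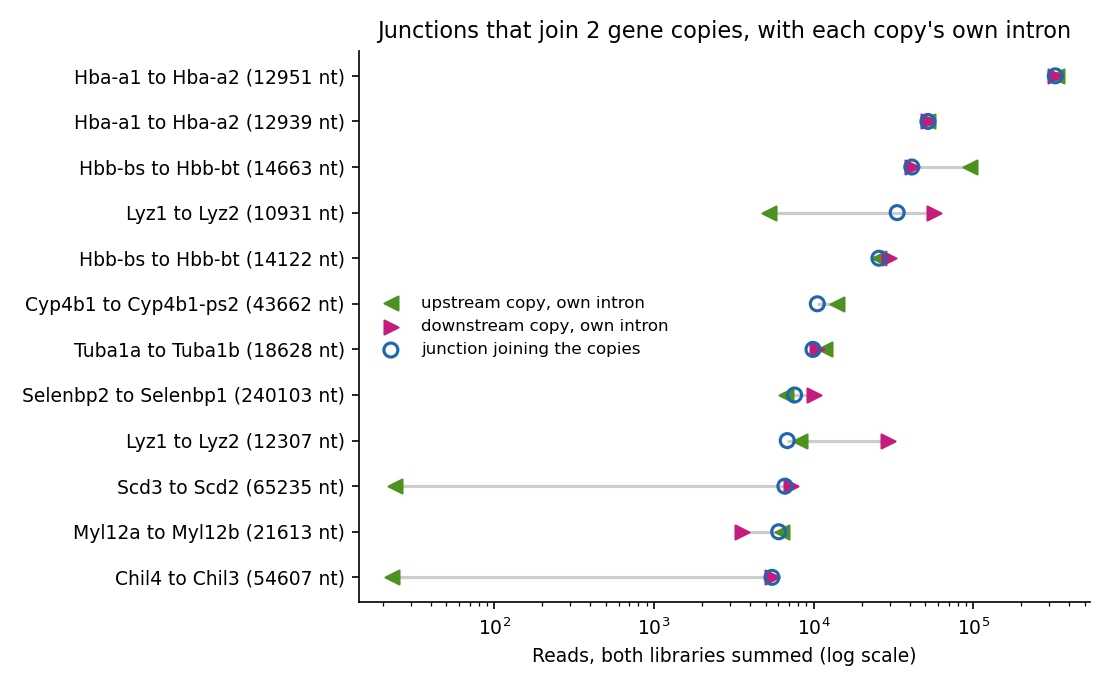
Reads (horizontal axis, both libraries summed, log scale) of the 12 junctions that join 2 named gene copies (open circles) and of the matching introns within the upstream and downstream copy (triangles); the span of each joining junction in nt is given beside its name, and the own intron of Cyp4b1-ps2 had no value. The 3 symbols fall together for both Hba introns, while Scd3 and Chil4 stand near 20 reads, far below their joining junctions.

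Apart from these 13, most of the junctions held nearly all reads at their splice sites. A junction chosen by its reads tends to have a high share of them, so the shares are a description. Of the other 513, 427 (83.24%) held at least 99% of the reads at both of their splice sites, against 68.88% of 50489 other named junctions with at least 100 reads. At the other end, 37 (7.212%) held less than 90% at either site, against 8.533%. For 25 of these 37 the main competitor joined gene copies or spanned more than 5000 unnamed bases. For the other 12, in 8 genes, it lay in or near the gene. Shares below carry exact Clopper-Pearson 95% intervals, which cover counting error only, and reads are not independent molecules.

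Among the junctions whose main competitor lay in or near the gene, those of Cfd were closest to an even choice. At its first intron (chr10, start 79353726), the acceptor of Cfd-202 took 11126 of 20276 reads, 54.87% (54.18 to 55.56), and that of Cfd-201, 3 bases upstream, took 9084, 44.8% (44.12 to 45.49). The deposited transcript table gave 100% of the gene's TPM to Cfd-201 in both libraries, and held no value for Cfd-202. A second pair of acceptors 3 bases apart was in Sftpb, at intron 10 in the 3′ UTR. There 34867 of 45513 reads, 76.61% (76.22 to 77.00), used the upstream acceptor and 10058, 22.1% (21.72 to 22.48), the downstream one. At intron 6 of Sftpb, 88592 reads used the main acceptor and 5746, 6.085% (5.933 to 6.239), one 70 bases further on; both passed the threshold.

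Other choices removed or kept whole stretches. In Ager, 11900 of 15183 reads from the donor site, the upstream end of an intron, of intron 8 went to the next exon, 78.38% (77.71 to 79.03). A junction with 3274 reads skipped to the acceptor of intron 9, where it made up 30.66% of reads. In Cd74, 8927 of 11386 reads at the donor of intron 6 used the member junction, 78.40% (77.64 to 79.16), and at its acceptor it held 69.19% (68.38 to 69.98). The main competitors on both sides, with 2448 and 3961 reads, were also annotated Cd74 introns. In Sftpa1, intron 2 in the 5′ UTR held 78.06% (77.24 to 78.86) of the reads at its acceptor, and a junction of 602 nt held 21.94%. In Rnase4, which encodes a ribonuclease, the member junction held 86.49% (85.7 to 87.25) of the reads at its donor. A junction of the neighbouring gene Ang shared that donor and held 13.46%. At its acceptor the member junction held 69.28% (68.34 to 70.2), and another Rnase4 junction of 13553 nt, with 2756 reads, held 28.99%.

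The deposited transcript shares did not always name a transcript with these junctions. In 11 genes the transcript with the greatest share of the gene's TPM lacked at least 1 member, and in 7 it lacked the most-read one. Myl12b, which has no level in the gene table, was not counted here. For Cbr2, the leading transcript was Cbr2-203, annotated with a retained intron, with 65.42% and 65.73% of the gene's TPM in replicates 1 and 2. It holds 1 of the 7 Cbr2 introns found here, and the coding transcript with all 7, Cbr2-201, had 30.72% and 30.01%. For Hba-a1, the leading transcript Hba-a1-202 has only the second of the 2 introns and had 96.08% and 98.52%, while the first intron had 52026 junction reads. For Fasn, the leading Fasn-202 (45.64% and 44.51%) holds 3 of the 6 members. For Sftpb the leading transcript, Sftpb-202 (78.5% and 81.14%), is annotated as subject to nonsense-mediated decay and holds 10 of the 12.

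Genes with a member, selected on reads, had high levels. Their median was 619.0 TPM in replicate 1 and 565.3 in replicate 2, 592.1 ± 37.99 (n = 2), over 216 genes with a level, against 14.42 TPM over the 13855 genes that reached 1 TPM in each library. A high level did not always bring a member. Of the 100 nuclear genes of highest TPM, 67 had one; of the 33 without, 10 have no annotated intron. The next 2 genes were picked after their values were seen. The ribosomal protein gene Rps12 had a mean of 3041 TPM and no junction above 628 reads, and the ferritin light chain gene Ftl1 had 2842 TPM and no junction above 290. Rplp1, also a ribosomal gene, had 45939 reads at its first intron and 446 at its second.

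Levels of the member genes were mostly similar between the libraries. Of 216 genes, 17 (7.87%) were 2-fold or more apart, against 6.66% of all 14708 genes whose mean count reached 50. In replicate 1, 6 (2.778%) were higher, against 4.45%, and in replicate 2, 11 (5.093%) were higher, against 2.21%. The median log2 ratio of replicate 2 over replicate 1 was 0.18 for the member genes and 0.00 over all genes tested. With 1 library on each side there is no test, and folds carry counting error only.

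Most of the genes higher in replicate 1 are markers of squamous epithelium or skeletal muscle, tissues that are not lung. Ckm, a muscle gene, kept a clear level in replicate 2 and differed least between the libraries. Krt13, a keratin gene of squamous epithelium, stood at 1725.5 and 0.24 TPM in replicates 1 and 2. Krt4, its keratin partner, stood at 1535.8 and 0.24, and Acta1, the skeletal muscle actin gene, at 1684.3 and 1.09. Cnfn, of the cornified envelope, had 1273.5 and 0.58 TPM, Ckm had 711.8 and 54.72, and the metallothionein gene Mt4 had 861.0 and was listed at 0. Replicate 1 was far higher for each of the 6, and the log2 ratios were -12.41, -12.29, -10.31, -10.57, -3.47 and -11.34 in that order. Of 19 measured genes on the squamous and skeletal muscle list, 5 had a member, with 13 junctions and 0.9692% of the members' reads. The 19 genes summed to 8627 TPM in replicate 1, none of them under 1 TPM. In replicate 2 they summed to 75.4 TPM. There 13 were under 1 TPM and 5 (Krtdap, Myh2, Myh4, Myh8 and Tnnc2) were listed at 0. Both sums include the 5 genes with a member, which were selected on summed reads, and Ckm alone gave 54.72 of the 75.4 TPM. The sums are thus a description and no separate support. With Mt4, 14 of the 526 junctions came from these genes. Without them, 512 junctions held 24.98% of all reads, with a median intron length of 623.5 nt. How far neighbouring tissue in replicate 1 gave rise to these junctions was not tested.

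The deposited list also gives each junction a reproducibility value from 0 to 1; how it was computed, and which end marks the better reproduced junctions, is not stated. It was 0 for 520 of the 526, among them all 5 junctions of Acta1 and that of Cnfn, and the other junctions of Krt13 and Krt4. Of the 6 above 0, Krt13 intron 5 (5725 reads), Krt4 intron 7 (5571), Ckm intron 2 (5104) and Rps21 intron 3 (9678) had the value 1. The first intron of Mt4 (5328 reads) and intron 8 of Cd36, a fatty acid transporter gene (5727), had 0.5. Values above 0.1 made up 1.141% of the members and 0.1795% of all junctions with at least 100 reads.

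In replicate 2, the haemoglobin genes and Cfd were higher. Cfd, a product of fat cells, stood at 191.9 TPM in replicate 1 and 1190.9 in replicate 2, 7.26-fold apart after scaling (95% counting interval 7.04 to 7.48). Hba-a1 stood at 5124.8 and 17648 TPM and Hba-a2 at 9861.6 and 25935. Hbb-bs stood at 6889.2 and 17581 TPM and Hbb-bt at 992.9 and 2123.3. All 4 haemoglobin genes with a member were more than 2-fold higher in replicate 2, with log2 ratios of 1.98, 1.62, 1.46 and 1.32. Cfd, Hba-a1, Hba-a2, Ifi27l2a (1.60), Bpifa1, an airway secretory protein gene (1.57), and Rgcc (1.51) had the 6 largest log2 ratios. In all, 19 of the 526 junctions came from genes higher in replicate 2. The main surfactant genes were closer, with log2 ratios of 0.20 for Sftpc, 0.70 for Sftpb and 0.16 for Sftpa1, and 0.33 for Scgb1a1.

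**Figure D5:**
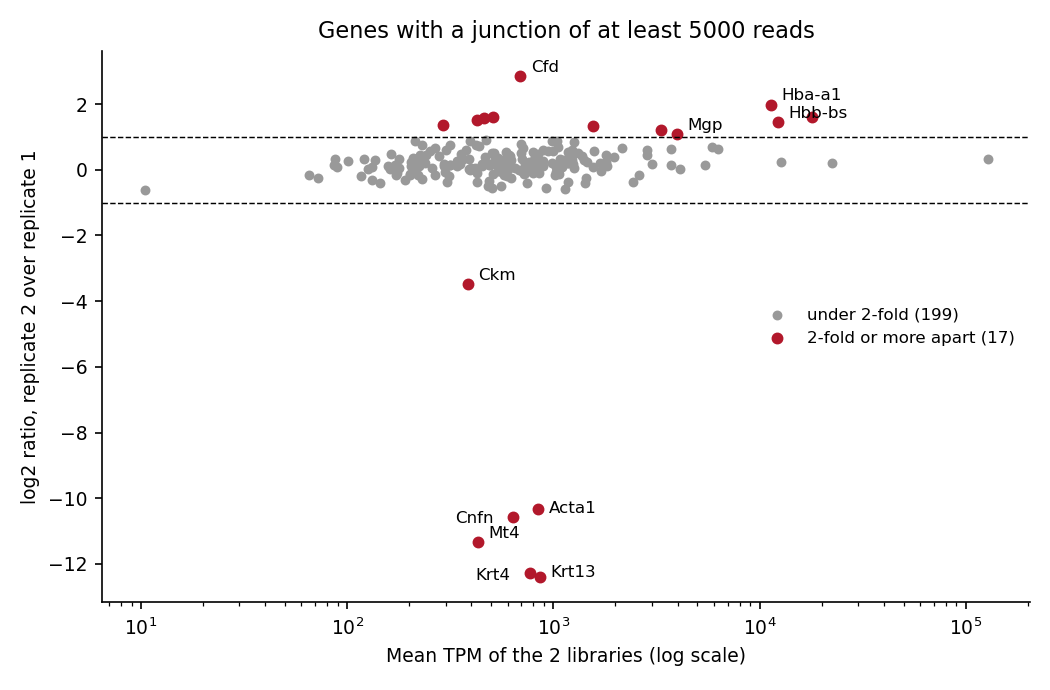
The log2 ratio of replicate 2 over replicate 1 (vertical axis) against the mean TPM of both libraries (horizontal axis, log scale) for the 216 genes with a heavily used junction and a level; each point is 1 gene and dashed lines mark 2-fold. Of the 17 genes outside the lines, 6 lie below, down to -12.41 for Krt13, and 11 above, up to 2.86 for Cfd.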

How the data were processed

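The 2 polyA RNA libraries of mouse lung (n = 2, 1 group, replicate numbers from the labels) were used. The deposited junction list (mm9) gives read counts per junction, summed over both libraries, and a reproducibility score that is the authors' value; how it was computed and read, and which aligner and junction caller were run, is not given in the sources read here. The sum is of 2 tallies inside the list that no source defines or ties to a replicate; they were taken to be the libraries and not used singly. The deposited gene tables (mm10, GENCODE M4, per the deposited file lists) hold expected counts, TPM and FPKM, and the deposited transcript tables hold the percent that each transcript takes of its gene, per the file headers. Expected counts on genes, rounded, summed to 48234758 in replicate 1 and 44182823 in replicate 2.

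Junctions were named without converting coordinates. A junction was matched to the introns of GENCODE M21 on GRCm38 by chromosome, strand and length, and by its spacing to other introns of the gene (502 members), to introns within 100000 bases with at least 3 in agreement (8), or by a named junction of the gene within 20000 bases (4). 12 members stayed unnamed (2.281%, against 6.873% of other junctions with at least 10 reads). Where genes share an intron, the one with more expected counts was taken. Coding position came from the coding transcript that holds the intron. Reads along a gene used the transcript with the highest percent, or, where that transcript retains an intron or lacks the most-read member, the coding transcript that holds it, a choice made after the data were seen.

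Log2 ratios (replicate 2 over replicate 1) were taken on CPM from the rounded counts in edgeR 4.0.16 (TMM scaling, prior count 2), for genes whose mean count reached 50, with exact Clopper-Pearson 95% intervals on folds. DESeq2 1.42.0 gave alternative size factors. R 4.3.3, Python 3.11.15, pandas 2.3.3, numpy 2.4.6, scipy 1.17.1 and matplotlib 3.10.9 were used. The scaling and the naming were tested on simulated data. No p-value is given, because there is 1 group.

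Named genes are the 20 junctions with the most reads, the 15 genes with the most members, members of the lists, 5 junctions on each side of the threshold, the 10 longest and 5 shortest introns, 6 log2 ratios at each extreme and the 6 genes with the largest ratio between introns. Genes of junctions that join copies or share a splice site, Rps12, Ftl1, Rps21 and Mt4's junction were named after their values were seen. The members and lists were chosen with earlier results of these data known. Alternatives covered the read threshold, the reproducibility value, the naming, FPKM, scaling, count minimum and leaving out a replicate.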

Additional observations from a re-analysis of the deposited data

How the results depend on the processing

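At thresholds of 2500 and 10000 reads, 1382 and 203 junctions passed, holding 33.52% and 18.85% of all junction reads, with median intron lengths of 660 and 694 nt, in 571 and 93 genes. A reproducibility value of at most 0.1 left 520 junctions. Over junctions with at least 10 reads only, the members' share was 25.69%. The median intron of the other junctions moved from 1617 nt to 1238.5 nt with at least 10 reads and to 911 nt with at least 100; the members' median was below all 3. Without the genes 2-fold higher in replicate 1, an alternative added after the data were seen, 512 junctions held 24.98% of reads with a median of 623.5 nt. Where intron length alone had to name 1 gene, 75 genes were found, because common lengths then name none; with spacing inside the gene only, also added later, there were 209. The median gene level was 451.6 in FPKM, another unit than TPM, and 565.3 to 619.0 TPM without either replicate. The number of genes 2-fold apart was 16 or 17 under library size scaling, DESeq2 size factors and a mean count of at least 10, and the median share of introns at the threshold was 33.33% under each choice of transcript. Library size scaling moved the median log2 ratio of all genes to -0.14 and that of the member genes to 0.04. No paired analysis was possible because both libraries belong to 1 group. Depth was not varied, and for genes with near-identical copies the placing of reads on 1 copy was not tested.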
